A study of Mus musculus with 12 samples.

Results

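The 10 genes described here, the members, belong to the MHC class II presentation pathway. They are the chain genes H2-Aa, H2-Ab1 and H2-Eb1, the invariant chain Cd74 and the peptide-exchange genes H2-DMa and H2-DMb2. The others are the modulators of that exchange, H2-Oa and H2-Ob, the coactivator Ciita and the ubiquitin ligase Marchf1. Every probe set with exactly 1 gene symbol from this list was taken, which gave 22 of 45037 probe sets, and the set of each gene that was brightest on average over the 12 arrays was leading while the others served as checks. They were measured in hematopoietic progenitors of mice whose transcription factor PU.1 (encoded by Spi1) carries the point mutation Q202L, which according to the study abolishes the interaction with c-Jun while DNA binding is kept. Arrays were available from 4 groups with 3 samples each. KI ST-HSC were short-term hematopoietic stem cells, and KI GMP were granulocyte-monocyte progenitors (called GMP-like by the study), both from homozygous Q202L knock-in animals. WT ST-HSC and WT GMP were the same sorted populations from wild-type animals. No group was treated, and all cells came from the liver of animals that the labels describe as newborns, harvested at birth or shortly before, and the study as embryos, of a strain recorded as C57Bl/6 in the labels and as a mixed background in the reporting summary. ST-HSC were sorted as lin- Sca-1+ c-kit+ CD150- cells, with CD48 given as positive in the sample labels and as negative in the series title and the methods. GMP were sorted as lin- Sca-1- c-kit+ cells with high Fc gamma receptor and CD34, although the study describes CD34 on the KI GMP-like cells as intermediate. The mutation is carried in the germline, so it is present in every cell of the animal, and the study kept a pair of founder lines without saying which one gave these samples.

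Class II molecules are heterodimers of an alpha and a beta chain that carry peptides from endosomes to the cell surface for CD4 T cells. The chains fold around the invariant chain, which is then cut away by cathepsins to leave a fragment in the groove. H2-DM exchanges this fragment for other peptides, and H2-DO restrains H2-DM in B cells and some dendritic cells. Transcription depends on an enhanceosome of the RFX, NF-Y and CREB factors on the X and Y boxes of the promoters, to which Ciita is recruited. The pathway is best known from dendritic cells, B cells and macrophages.

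The windows of 250 bases before to 50 bases after the RefSeq start (build GRCm38.p6) are printed for 5 members. All of these but H2-Oa were called lower in KI ST-HSC. The windows lie at chr17:34305617-34305916 (plus strand) for H2-Eb1, chr17:34238655-34238954 (plus strand) for H2-Ob, chr17:34287774-34288073 (minus strand) for H2-Aa, chr17:34092129-34092428 (plus strand) for H2-Oa and chr17:34144999-34145298 (plus strand) for H2-DMb2. Capitals mark the X box core CTAGCAAC, the Y box CCAAT on either strand (ATTGG on the other), and GCAAC where it precedes ATTGG by a gap of 20 to 35 bases. Each sequence is printed 5′ to 3′ in the direction of the gene.
H2-Eb1: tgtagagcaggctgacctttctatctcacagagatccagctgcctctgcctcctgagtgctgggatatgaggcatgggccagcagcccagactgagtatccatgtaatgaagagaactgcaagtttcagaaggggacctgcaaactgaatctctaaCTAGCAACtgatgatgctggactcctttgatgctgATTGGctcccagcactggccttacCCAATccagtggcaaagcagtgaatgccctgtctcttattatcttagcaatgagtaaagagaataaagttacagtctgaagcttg
H2-Ob: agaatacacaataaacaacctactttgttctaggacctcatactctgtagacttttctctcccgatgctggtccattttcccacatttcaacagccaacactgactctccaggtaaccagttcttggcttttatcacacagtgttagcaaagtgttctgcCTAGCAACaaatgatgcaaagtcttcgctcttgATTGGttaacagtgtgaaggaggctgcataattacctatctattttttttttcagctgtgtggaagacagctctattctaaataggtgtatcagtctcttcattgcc
H2-Aa: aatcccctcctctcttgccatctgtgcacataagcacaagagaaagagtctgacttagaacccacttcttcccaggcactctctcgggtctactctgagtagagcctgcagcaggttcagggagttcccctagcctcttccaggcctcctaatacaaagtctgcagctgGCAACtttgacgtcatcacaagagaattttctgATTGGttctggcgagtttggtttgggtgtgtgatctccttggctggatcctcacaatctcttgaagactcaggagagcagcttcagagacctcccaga
H2-Oa: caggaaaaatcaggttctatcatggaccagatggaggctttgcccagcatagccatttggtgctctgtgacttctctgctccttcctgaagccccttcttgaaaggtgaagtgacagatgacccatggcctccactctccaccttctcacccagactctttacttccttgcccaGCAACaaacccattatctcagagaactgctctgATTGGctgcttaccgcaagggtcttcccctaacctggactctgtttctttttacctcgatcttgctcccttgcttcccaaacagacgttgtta
H2-DMb2: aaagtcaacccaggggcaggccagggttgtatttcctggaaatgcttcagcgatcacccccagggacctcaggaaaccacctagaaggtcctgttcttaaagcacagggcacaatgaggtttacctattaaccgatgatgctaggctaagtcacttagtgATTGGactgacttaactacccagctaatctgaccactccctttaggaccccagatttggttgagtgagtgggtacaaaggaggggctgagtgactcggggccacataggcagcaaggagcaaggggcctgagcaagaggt
The core CTAGCAAC was found among the printed windows only in those of H2-Eb1 and H2-Ob, and in 1.32% of all 32851 promoter windows. The Y box word occurred in all 5 printed windows and is common, with 37.4% of all windows holding it on either strand. The pair of GCAAC and ATTGG, which was chosen after these promoters had been read and overlaps both other words, occurred in 0.794% of all windows. It was present in H2-Eb1 with a gap of 27 bases and GCAAC beginning 91 bases before the start, and in H2-Ob with a gap of 25 bases and GCAAC beginning 87 bases before it. H2-Aa and H2-Oa both had a gap of 28 bases, with GCAAC beginning 81 bases before the start in H2-Aa and 76 bases before it in H2-Oa. The window of H2-DMb2 held ATTGG beginning 90 bases before the start, without that pair. The AP-1 word TGANTCA (7.81% of all windows) was found among the searched windows only in 1 of the 2 windows of H2-DMa. The PU.1 word GAGGAAGT (3.20% of all windows) was in none of the 10 windows searched, which belonged to 7 members. No window of H2-Ab1, Cd74 or Ciita was searched. These matches describe letters in a short window only. Of the 4 genes with the spaced pair, H2-Oa was the one whose KI and WT values overlapped in ST-HSC.

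Probe set values are log2 values after robust multi-array average (RMA) normalization, so 1 unit is a doubling of signal. Values of different probe sets were not compared with each other. Array medians lay between 5.00 and 5.10 in the ST-HSC arrays and between 4.70 and 4.79 in the GMP arrays, and replicates of a group correlated with r between 0.963 and 0.990 over all probe sets. Because of the separate medians, levels of the populations are set side by side without a test. Differences are KI minus WT from limma, called where the p adjusted by Benjamini-Hochberg for all 45037 probe sets was under 0.05. Kit, whose product was used for the sort, lay between 7.97 and 9.19 on all arrays. Cd48 lay between 11.58 and 12.06 in all ST-HSC arrays. Cd34 was lower by 1.41 in KI ST-HSC and by 2.87 in KI GMP (adjusted p = 0.00103 and 6.98e-06). Slamf1, which encodes CD150, was 6.50 to 6.54 in KI ST-HSC and 4.05 to 4.90 in WT ST-HSC, and was called higher by 1.92 (adjusted p = 0.00132). Fcgr3, which encodes an Fc gamma receptor, averaged 11.11 in KI ST-HSC and 9.44 in WT ST-HSC and was higher by 1.68 (adjusted p = 0.00165). In GMP the difference of Fcgr3 was 0.63 and was not called (adjusted p = 0.157). Spi1 itself averaged 8.14 ± 0.05 in KI ST-HSC and 7.97 ± 0.07 in WT ST-HSC, and 8.65 ± 0.34 in KI GMP and 8.26 ± 0.27 in WT GMP (SD, n = 3 each), with no call in either population (adjusted p = 0.798 and 0.384). The labels do not say whether the samples of a group came from separate animals, so the p-values reflect only how far these samples spread, which may be technical. In these sorted bulk samples, fewer cells of a type and less RNA per cell cannot be told apart.

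In ST-HSC, most of these members were lower in KI cells. Of the 10 members, 8 were lower in KI ST-HSC, none was higher, and H2-Oa and Ciita were not called, while 1.68% of the 18193 genes on the array were called lower. Significance analysis of microarrays (SAM), the test named in the study's methods, called 5 of the 10 and not H2-Aa, H2-DMb2 or H2-Ob. Counting every probe set, 16 of 22 were lower, against 1.19% of all probe sets. All KI arrays lay below all WT arrays for 9 of the 10 members, against 11.2% of all genes. The median difference of the members was -3.80, and that of all genes was -0.02. Most of these members were tabled by the study from the same samples, so their direction is not independent evidence.

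**Figure D1:**
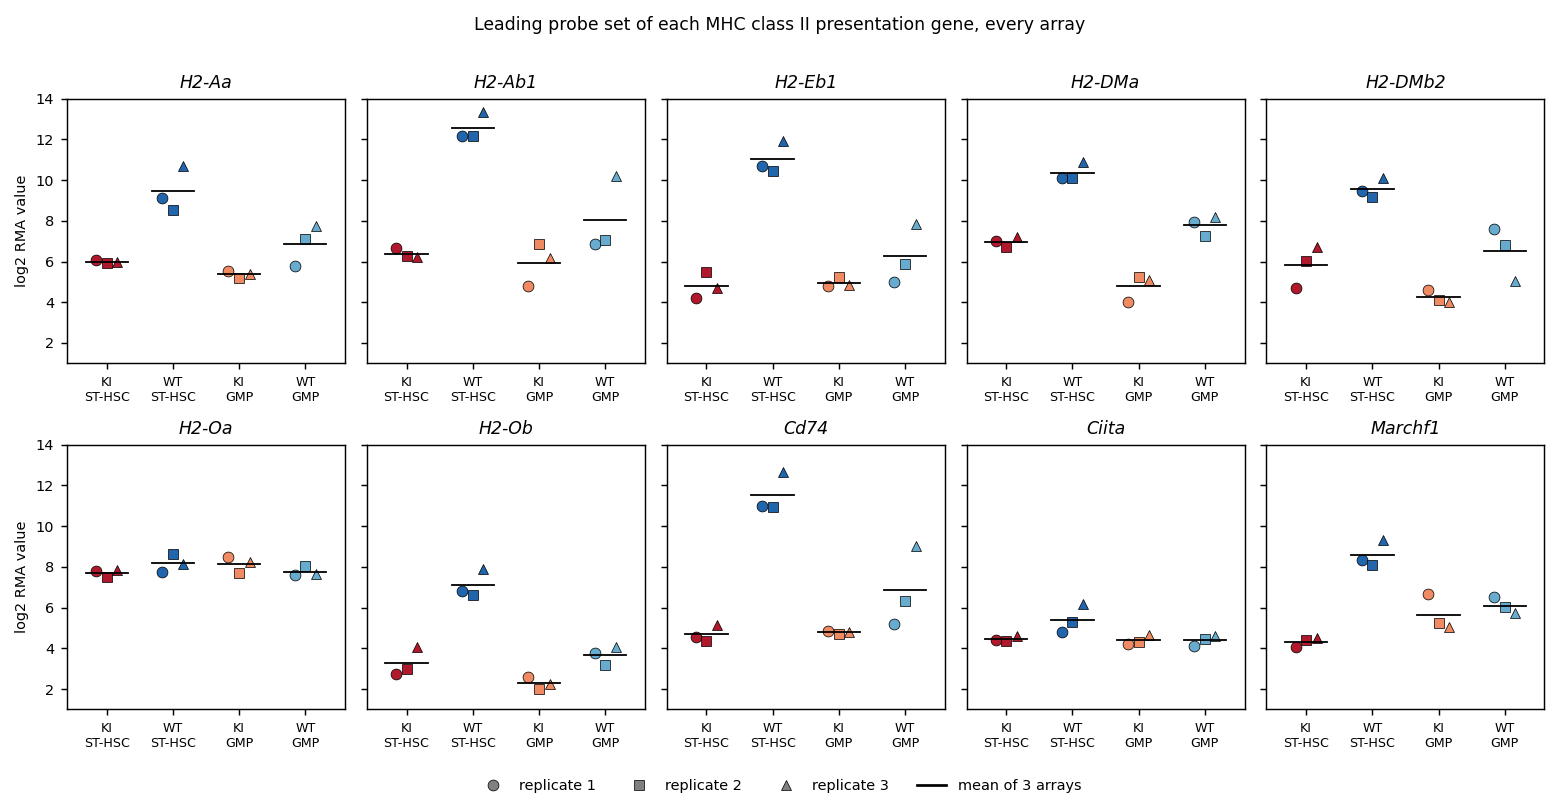
Log2 RMA value of the leading probe set (y axis) for each of the 10 members in KI and WT cells of both populations (x axis), with a marker shape for each replicate number and a line at the group mean. For 8 members the WT ST-HSC arrays stand well above the KI ST-HSC arrays, whereas H2-Oa stays between 7.52 and 8.64 on all 12 arrays.

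All 3 chain genes were lower in KI ST-HSC. H2-Eb1, the beta chain of I-E, had values of 4.21, 5.48 and 4.69 in KI ST-HSC and of 10.72, 10.46 and 11.93 in WT ST-HSC. The lowest WT array thus lay far above the highest KI array. The difference was -6.25 (SE 0.64, adjusted p = 0.000752). H2-Ab1, the beta chain of I-A, had values of 6.64, 6.28 and 6.25 in KI ST-HSC and of 12.17, 12.18 and 13.35 in WT ST-HSC. Its 3 KI arrays were close together and far from WT, and the difference was -6.18 (SE 0.81, adjusted p = 0.00280), or 72.4-fold. The other probe sets of H2-Ab1 were lower by 4.98 and by 3.82, and both were called. H2-Aa, the alpha chain of I-A, had values of 6.08, 5.94 and 5.99 in KI ST-HSC and of 9.14, 8.53 and 10.68 in WT ST-HSC, a difference of -3.45 (SE 0.55, adjusted p = 0.00797) that SAM did not call. The size of the fall depended on the probe set. A second set of H2-Aa, 1435290_x_at, had values of 2.95, 3.99 and 3.92 in KI ST-HSC and of 11.85, 11.74 and 12.88 in WT ST-HSC, which is a difference of -8.54 (adjusted p = 0.000412), while 1452431_s_at gave -6.63 and the dim 1443783_x_at gave -0.77 without a call. All 4 sets of H2-Aa carry a suffix for probes that can bind several related transcripts.

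The invariant chain moved with the chains. Cd74 had values of 4.57, 4.37 and 5.16 in KI ST-HSC and of 10.97, 10.93 and 12.68 in WT ST-HSC. Its KI values were close together and far below all WT values, and the difference was -6.82 (SE 0.80, adjusted p = 0.00149). The gene lies on chromosome 18, apart from the chain genes on chromosome 17.

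Both genes for peptide exchange were lower in KI ST-HSC. H2-DMa, the alpha chain of H2-DM, had values of 7.03, 6.70 and 7.22 in KI ST-HSC and of 10.12, 10.09 and 10.89 in WT ST-HSC. The groups were far apart, with a difference of -3.38 (SE 0.36, adjusted p = 0.000926), and its other probe set was lower by 2.46. H2-DMb2, a beta chain of H2-DM, had values of 4.69, 6.02 and 6.73 in KI ST-HSC and of 9.47, 9.15 and 10.10 in WT ST-HSC. The KI arrays were spread more widely here than for any other member in ST-HSC, and the difference was -3.76 (SE 0.64, adjusted p = 0.0117). Without WT ST-HSC replicate 3 it was -3.50 with an adjusted p of 0.0503. The other probe sets of H2-DMb2 were lower by 4.28 and by 4.70, both called. The neighbouring beta chain gene H2-DMb1 had no probe set of its own, and the 2 sets that it shares with H2-DMb2 were lower by 3.93 and by 3.56 in KI ST-HSC (adjusted p = 0.000374 and 0.000182).

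The chains of H2-DO diverged. H2-Ob, the beta chain, had values of 2.72, 2.99 and 4.07 in KI ST-HSC and of 6.80, 6.60 and 7.90 in WT ST-HSC. All KI arrays were lower, and the difference was -3.84 (SE 0.42, adjusted p = 0.00105), which SAM did not call. H2-Oa, the alpha chain, had values of 7.80, 7.52 and 7.85 in KI ST-HSC and of 7.73, 8.64 and 8.15 in WT ST-HSC. These arrays overlapped, and the difference was -0.45 with a 95% interval of -1.02 to 0.12 (adjusted p = 0.526). Each of these genes had 1 probe set, so there was no check on either.

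The regulators also diverged. Marchf1, a membrane ubiquitin ligase that removes class II from the surface, had values of 4.05, 4.42 and 4.49 in KI ST-HSC and of 8.33, 8.08 and 9.30 in WT ST-HSC. The groups were far apart, with a difference of -4.25 (SE 0.44, adjusted p = 0.000714), and the probe set 1434955_at was lower by 4.13. A further set, 1431367_at, read 3.49 to 4.35 in KI ST-HSC and 3.75 to 4.05 in WT ST-HSC, with a difference of 0.00. Ciita, the coactivator that class II transcription depends on, had values of 4.39, 4.38 and 4.61 in KI ST-HSC and of 4.79, 5.29 and 6.16 in WT ST-HSC. Its KI arrays all lay below WT, but values were low in both groups and the difference of -0.95 (95% interval -1.61 to -0.30) was not called (adjusted p = 0.165). It was -1.26 with an adjusted p of 0.0424 without WT ST-HSC replicate 1. The other Ciita probe sets gave -0.06 and -0.15 and were not called. The deposited values carry no detection calls, so a low value cannot be told from background.

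**Figure D2:**
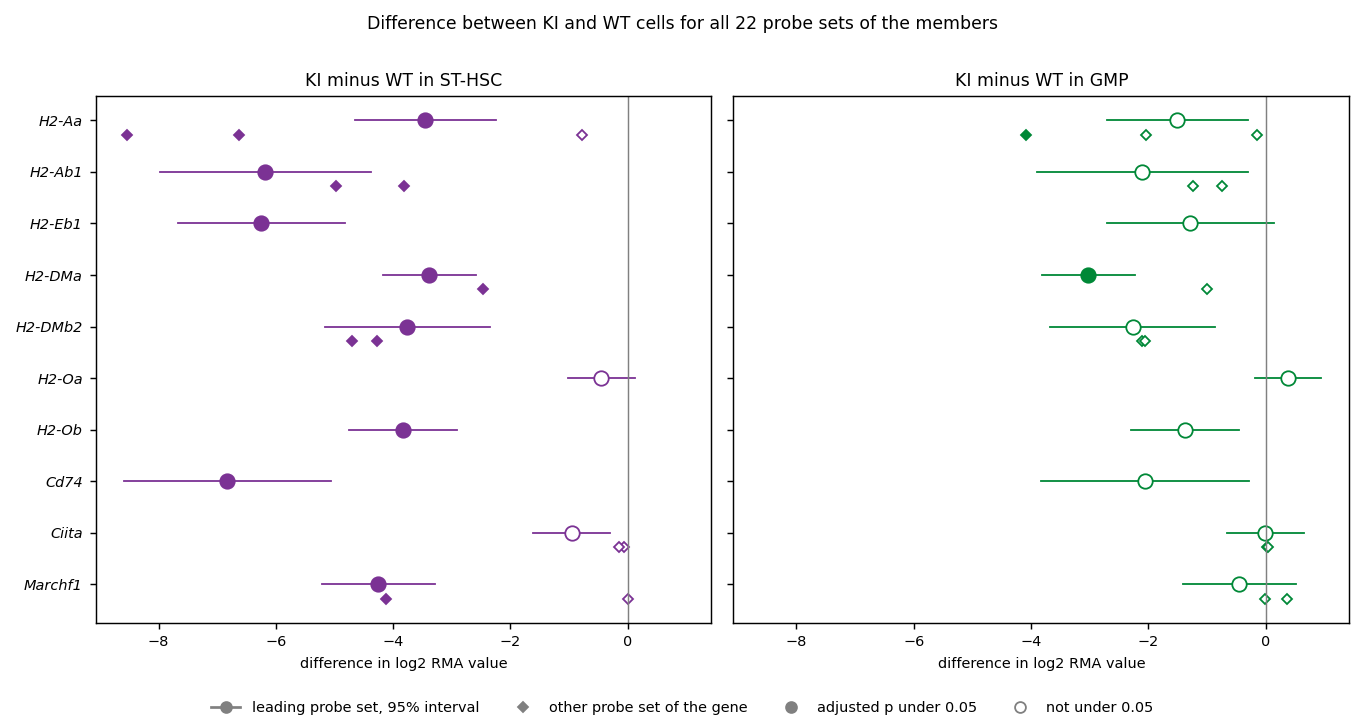
Difference of KI minus WT in log2 RMA value (x axis) for each member (y axis), with ST-HSC on the left and GMP on the right, and circles and 95% intervals for the leading probe sets and diamonds for the others; filled symbols passed an adjusted p under 0.05. In ST-HSC 16 symbols are filled, all left of 0, and in GMP 2 are filled.

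In GMP, H2-DMa was the only member called lower in KI cells, which is 1 of 10 members against 1.40% of all genes, and no member was called higher. Counting every probe set, 2 of 22 were lower, against 1.07% of all probe sets. The difference was negative for 9 of the 10 members, with a median of -1.44 against -0.03 for all genes. All KI GMP arrays lay below all WT GMP arrays for 6 of the 10 members, against 11.1% of all genes.

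H2-DMa had values of 4.02, 5.23 and 5.11 in KI GMP and of 7.95, 7.28 and 8.21 in WT GMP. No arrays overlapped, and the difference was -3.03 (SE 0.36, adjusted p = 0.00212), and SAM did not call it. Its other probe set was at -1.002 and was not called. H2-DMb2 had values of 4.58, 4.10 and 4.02 in KI GMP and of 7.62, 6.84 and 5.06 in WT GMP. The KI values were lower but WT GMP replicate 3 came close to them, and the difference of -2.27 was not called (adjusted p = 0.106). Without that array it was -2.99 with an adjusted p of 0.0308. Of the sets shared with H2-DMb1, 1449580_s_at was lower by 1.70 (adjusted p = 0.0157), and 1418638_at stood at -1.41 (adjusted p = 0.0805).

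The chain genes and Cd74 varied widely between the WT GMP arrays. Cd74 had values of 4.83, 4.72 and 4.80 in KI GMP and of 5.19, 6.35 and 9.002 in WT GMP. KI values were nearly the same on all arrays whereas WT values were spread widely, and the difference of -2.06 was not called (adjusted p = 0.258). Without WT GMP replicate 3 it was -0.98. H2-Ab1 had values of 4.81, 6.86 and 6.15 in KI GMP and of 6.88, 7.05 and 10.21 in WT GMP, with a difference of -2.10 (adjusted p = 0.254), and -1.02 without replicate 3 of WT GMP. H2-Eb1 had values of 4.81, 5.23 and 4.85 in KI GMP and of 5.02, 5.89 and 7.85 in WT GMP. Its groups overlapped, and the difference of -1.29 (adjusted p = 0.412) was -0.49 without that array. H2-Aa had values of 5.53, 5.21 and 5.39 in KI GMP and of 5.77, 7.13 and 7.74 in WT GMP, with a difference of -1.50 (adjusted p = 0.219). The set 1435290_x_at of H2-Aa had values of 3.20, 3.54 and 3.88 in KI GMP and of 5.73, 7.39 and 9.76 in WT GMP, and its difference of -4.09 was called (adjusted p = 0.0292). Of the sets of H2-Aa in GMP it was the only one called.

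The remaining members gave no call in GMP. H2-Ob had values of 2.57, 2.01 and 2.26 in KI GMP and of 3.76, 3.16 and 4.06 in WT GMP. The arrays did not overlap, and the difference was -1.38 (95% interval -2.30 to -0.46, adjusted p = 0.132). H2-Oa had values of 8.48, 7.71 and 8.26 in KI GMP and of 7.61, 8.03 and 7.66 in WT GMP, a difference of 0.38 (95% interval -0.19 to 0.95, adjusted p = 0.580) and the only positive difference among the leading sets. Marchf1 had values of 6.66, 5.24 and 5.04 in KI GMP and of 6.54, 6.03 and 5.72 in WT GMP, a difference of -0.45 (adjusted p = 0.741). Both genes overlapped between the groups. Ciita had values of 4.22, 4.29 and 4.65 in KI GMP and of 4.10, 4.47 and 4.61 in WT GMP, a difference of -0.01 (95% interval -0.66 to 0.65, adjusted p = 0.997).

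Side by side, WT ST-HSC had the highest mean of the 4 groups for 10 of 10 members, and the lowest mean was that of KI GMP for 6 and of KI ST-HSC for 4 of them. These ranks include the separate array medians of the populations and were not counted over all genes. Some are narrow. For H2-Oa the mean was 8.18 in WT ST-HSC and 8.15 in KI GMP. For Ciita it was 4.387 in KI GMP, 4.393 in WT GMP and 4.461 in KI ST-HSC. For H2-DMa the order was WT ST-HSC, WT GMP, KI ST-HSC and KI GMP, and no neighbours in that order overlapped. For H2-Oa all neighbours in the order overlapped. For H2-Aa, H2-DMb2 and H2-Ob the WT GMP and KI ST-HSC arrays overlapped, and for H2-Eb1 and Cd74 the KI GMP and KI ST-HSC arrays did. The difference between the populations in the KI effect (GMP minus ST-HSC) was positive for all 10 members, with a median of 2.20, but 0 of 10 passed the adjusted threshold in limma (0.0495% of all genes did). At an unadjusted p under 0.05 there were 8 of 10, against 3.73% of all genes in that direction. The lowest adjusted p was that of Marchf1, with a difference of 3.80 (adjusted p = 0.0844). Differences were 4.96 for H2-Eb1 (adjusted p = 0.110), 4.76 for Cd74 (adjusted p = 0.219) and 0.36 for H2-DMa (adjusted p = 0.917). For Cd74 the mean was 4.70 in KI ST-HSC and 4.78 in KI GMP, and 11.53 in WT ST-HSC and 6.85 in WT GMP. For H2-Eb1 these means were 4.79 and 4.97 in KI cells, and 11.04 and 6.25 in WT cells. For H2-DMa they were 6.98 and 4.79 in KI cells, and 10.37 and 7.81 in WT cells. The differences thus include the change of the WT level between the populations, which was not tested. Leaving out WT GMP replicate 3, the differences of H2-Eb1 and Cd74 were 5.76 and 5.84 and were called (adjusted p = 0.0270 and 0.0368).

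The members on chromosome 17 were not next to each other in every case, and the genes between them served as a local comparison. In RefSeq order these are H2-Oa, Brd2, H2-DMa, H2-DMb2, H2-DMb1, Psmb9, Tap1, Psmb8, Tap2, H2-Ob, H2-Ab1, H2-Aa and H2-Eb1. Of the 5 measured genes that are no members, 2 were lower in KI ST-HSC, against 1.68% of all genes. Tap1, a subunit of the peptide transporter for class I, had a difference of -1.56 (adjusted p = 0.00684), and Psmb8, a subunit of the immunoproteasome, had -1.20 (adjusted p = 0.00701). In GMP, Psmb9, another immunoproteasome subunit, was lower by 1.80 (adjusted p = 0.0189) and Psmb8 was lower by 1.19 (adjusted p = 0.00961). Brd2, a bromodomain protein between H2-Oa and H2-DMa, had values of 9.75, 9.46 and 9.38 in KI ST-HSC and of 9.09, 8.60 and 8.78 in WT ST-HSC, a difference of 0.71 that was not called (adjusted p = 0.267). Marchf1 lies on chromosome 8, and Ciita on chromosome 16.

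**Figure D3:**
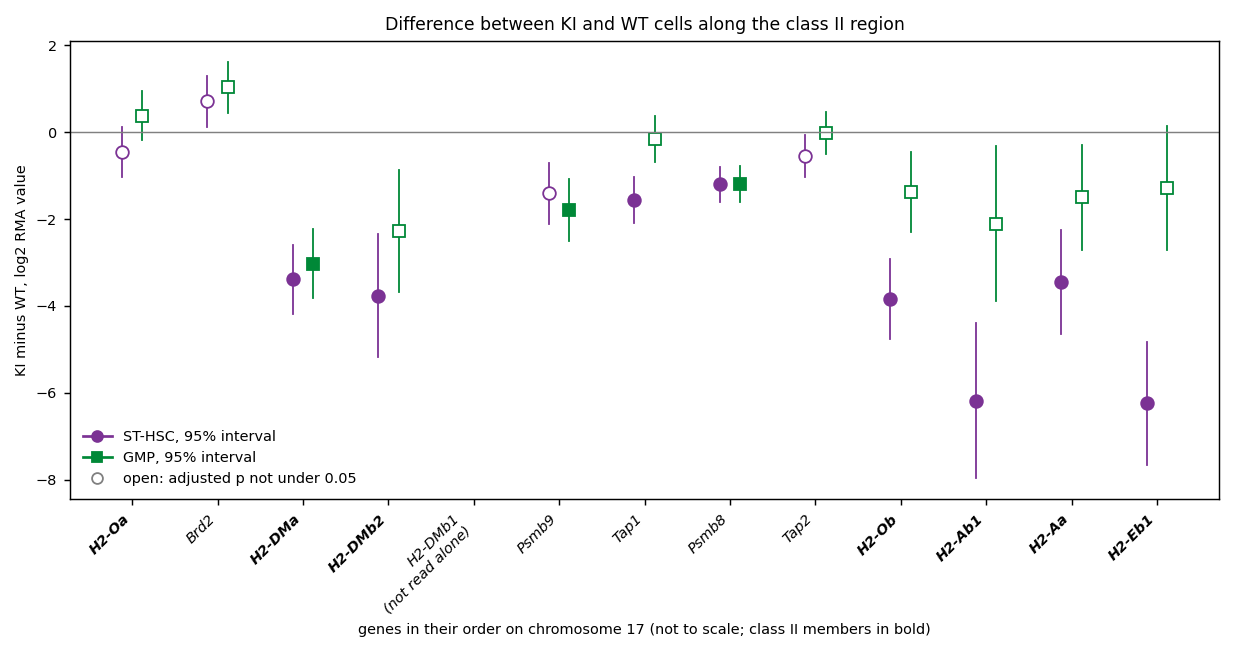
Difference of KI minus WT in log2 RMA value (y axis, with 95% intervals) for the genes of the class II region in their order on chromosome 17 (x axis, not to scale), in ST-HSC (circles) and GMP (squares), with filled symbols for an adjusted p under 0.05. H2-Oa and Brd2 at one end lie near or above 0. At the other end H2-Ab1 and H2-Eb1 lie below -6 in ST-HSC, with H2-Aa between them at -3.45.

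Among other class II genes, H2-Ea, the alpha chain of I-E, read 5.13, 5.20 and 5.22 in KI ST-HSC and 5.26, 4.96 and 4.93 in WT ST-HSC on its leading probe set, and H2-Eb2 read 4.60 to 4.75 in KI ST-HSC and 4.59 to 4.83 in WT ST-HSC. Neither was called in either population, and C57BL/6 mice are known to carry a defect of the H2-Ea promoter. Of 12 genes of antigen processing and surface partners, 3 were lower and 1 was higher in KI ST-HSC (1.68% of all genes were called lower and 1.33% higher). Ctss, the cathepsin that cuts the invariant chain in dendritic and B cells, had values of 3.58, 2.71 and 2.69 in KI ST-HSC and of 11.10, 10.04 and 11.35 in WT ST-HSC. It was lower by 7.84 (SE 0.51, adjusted p = 3.83e-05), without overlap. In GMP, Ctss had values of 3.73, 3.85 and 3.81 in KI cells and of 7.92, 6.35 and 8.49 in WT cells, and it was lower by 3.79 (adjusted p = 0.00426). Lgmn, a lysosomal endopeptidase, was lower by 2.56 and Cd86, a costimulatory ligand, was lower by 4.42 in KI ST-HSC (adjusted p = 0.00126 and 0.0198). Ctsd, an aspartic protease of lysosomes, was higher by 0.76 in KI ST-HSC and by 0.63 in KI GMP (adjusted p = 0.00776 and 0.0273), and in GMP 1.19% of all genes were called higher.

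Of 15 measured regulators of class II transcription, 2 were lower in KI ST-HSC and 1 was lower in KI GMP, against 1.68% and 1.40% of all genes. Irf8, a transcription factor of dendritic cells and monocytes, had values of 4.55, 4.52 and 5.86 in KI ST-HSC and of 11.13, 10.95 and 11.75 in WT ST-HSC. It was lower by 6.30 (SE 0.40, adjusted p = 3.66e-05). In GMP it had values of 6.18, 6.11 and 5.34 in KI cells and of 8.98, 9.57 and 8.64 in WT cells, and it was lower by 3.18 (adjusted p = 0.00291). Both populations were without overlap for Irf8. Ifngr2, a chain of the interferon gamma receptor, was lower by 1.41 in KI ST-HSC (adjusted p = 0.0327). The enhanceosome genes Rfx5, Rfxap, Rfxank, Nfya, Nfyb, Nfyc and Creb1 gave no call in either population, with differences between -1.21 (Nfya) and 0.20 (Rfxap) in ST-HSC. Of 14 genes of class I presentation, 2 were lower in each population, and these were the neighbours Tap1 and Psmb8 in ST-HSC and Psmb9 and Psmb8 in GMP. The median difference of the class I genes was -0.61 in ST-HSC and -0.23 in GMP.

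The genes most like the members over the 12 arrays were chosen by Pearson's r with the mean of the members, after each population had been centred on its own mean. The arrays share their group structure, so r describes mainly the common difference between KI and WT ST-HSC. They were Aif1 (r = 0.987), a calcium-binding protein of macrophages, Cst3 (r = 0.985), the protease inhibitor cystatin C, Tlr3 (r = 0.980), a receptor for double-stranded RNA, Pld4 (r = 0.980), an exonuclease of endolysosomes, and Rab7b (r = 0.969), a GTPase of late endosomes. Aif1 had values of 3.29, 3.35 and 3.91 in KI ST-HSC and of 9.41, 9.17 and 11.82 in WT ST-HSC. Tlr3 had values of 3.34, 3.33 and 2.70 in KI ST-HSC and of 8.26, 9.38 and 11.06 in WT ST-HSC. For both genes, WT ST-HSC replicate 3 was the highest array. Among the members, r with the mean of the others was between 0.785 and 0.978 for all but H2-Oa, for which it was 0.268.

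Replicate 3 stood apart within both WT groups. In WT ST-HSC, this array was the highest of its group for 9 of 10 members, the exception being H2-Oa, and in WT GMP it was the highest for 7 of 10. The mean of the members was 5.22 to 5.71 in KI ST-HSC, and in WT ST-HSC it was 9.03, 8.995 and 10.11. It was 5.05 to 5.06 in KI GMP, and in WT GMP it was 6.04, 6.22 and 7.01. The mean of dendritic cell markers was also lower in KI ST-HSC. The mean of the 9 measured dendritic cell markers was 5.05 to 5.24 in KI ST-HSC, and it was 6.70, 6.32 and 7.73 in WT ST-HSC, with replicate 3 the highest. All 9 had a negative difference in ST-HSC, as did 9553 of 18193 genes, and 3 were called, namely Itgax, Cd24a and Flt3 (against 1.68% of all genes). The other 6, among them Zbtb46, Xcr1, Batf3, Siglech and Cd209a, were not called. Flt3 (10.83, 10.28 and 10.47), Siglech and Cd209a were highest on WT ST-HSC replicate 1, unlike most members. Itgax, the integrin CD11c, had values of 3.27, 4.10 and 4.17 in KI ST-HSC and of 7.08, 6.86 and 8.83 in WT ST-HSC. Xcr1, a chemokine receptor of cross-presenting dendritic cells, had values of 3.77, 3.79 and 4.51 in KI ST-HSC and of 4.50, 4.37 and 8.70 in WT ST-HSC, so it was raised on replicate 3 of WT ST-HSC only. Without replicate 3 of both WT groups, a setting chosen after the data had been seen, 8 of 10 members were again lower in KI ST-HSC, with a median of -3.47.

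In GMP the dendritic cell markers averaged 4.35 to 4.59 in KI cells and 4.99 to 5.11 in WT cells, and WT replicate 3 was not the highest. Hepatocyte markers averaged 4.77 to 5.70 in KI GMP, and 5.44, 6.19 and 7.08 in WT GMP, with replicate 3 the highest. In ST-HSC these averaged 5.73 to 5.86 in KI cells and 6.50 to 7.60 in WT cells. All 4 measured hepatocyte markers had a negative difference in both populations, and 1 was called, Afp, a secreted protein of fetal liver, lower by 1.53 in KI ST-HSC and by 1.92 in KI GMP (adjusted p = 0.00582 and 0.00210). Cd5l, a macrophage product, read 3.88 to 4.06 in KI GMP, and 4.35, 4.50 and 7.20 in WT GMP. It was not called (adjusted p = 0.315). Of the other macrophage and monocyte markers, Csf1r, C1qa, Timd4 and Ccr2 were also highest on WT GMP replicate 3. Vcam1 (6.10, 6.33 and 5.63), Cx3cr1 (6.01, 7.22 and 5.84), Marco and C1qb were lowest on that array among WT GMP. Of 13 macrophage and monocyte markers, 2 were lower in KI ST-HSC and 1 was lower in KI GMP. Over all 18193 genes, 1.68% were called lower in ST-HSC and 1.40% in GMP, and 9553 and 9991 had a negative difference. The mean of the macrophage and monocyte list per array was between 4.36 and 4.66 in KI ST-HSC and between 5.50 and 5.79 in WT ST-HSC. In GMP it was between 4.69 and 4.98 in KI cells and between 5.38 and 5.74 in WT cells. Csf1r, the receptor for the macrophage growth factor CSF-1, read 3.32 to 5.27 in KI ST-HSC and 10.88 to 11.55 in WT ST-HSC, and was lower by 7.10 there and by 3.92 in KI GMP (adjusted p = 0.00149 and 0.0409). Ccr2, a chemokine receptor of monocytes, was lower by 2.84 in KI ST-HSC (adjusted p = 0.00784). Of 11 B lineage markers, 4 were lower in KI ST-HSC and 1 was lower in KI GMP, and the list mean per array was between 4.14 and 4.36 in KI ST-HSC and between 5.85 and 6.70 in WT ST-HSC, and between 4.16 and 4.75 in KI GMP and between 4.33 and 4.88 in WT GMP. All 11 had a negative difference in ST-HSC. Rag1, a recombinase of lymphoid progenitors, read 2.87 to 3.14 in KI ST-HSC and 6.06 to 8.62 in WT ST-HSC, and Il7r, the interleukin receptor of lymphoid progenitors, read 2.46 to 3.20 in KI ST-HSC and 7.36 to 7.90 in WT ST-HSC. They were lower by 4.47 and by 4.74 (adjusted p = 0.00101 and 0.00523). Vpreb1, part of the surrogate light chain, and Cd79b, a chain of the B cell receptor complex, were lower by 4.21 and by 2.29 in KI ST-HSC (adjusted p = 0.0422 and 0.0189), and Cd79b was lower by 2.12 in KI GMP (adjusted p = 0.0321). Among the markers without a call, Ms4a1, the B cell antigen CD20, read 2.87 to 3.15 in KI ST-HSC and 2.92 to 3.58 in WT ST-HSC, and C1qa, a complement component of tissue macrophages, read 4.72 to 4.97 in KI ST-HSC and 4.88 to 4.96 in WT ST-HSC. Of 6 T and NK markers 1 was higher in each population (Nkg7 in KI ST-HSC and Cd3g in KI GMP), against 1.33% and 1.19% of all genes. Of 9 granulocyte markers 1 was lower in KI GMP (Ltf). The part of cells of these types in the class II values was not tested.

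**Figure D4:**
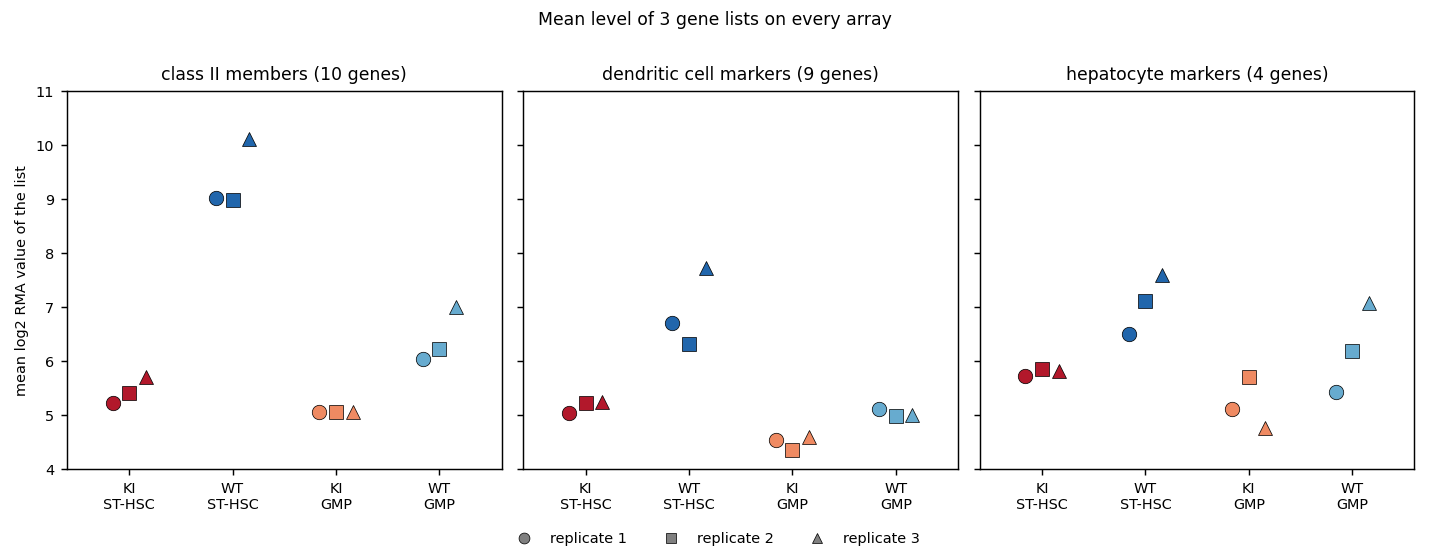
Mean log2 RMA value (y axis) of the 10 members, 9 dendritic cell markers and 4 hepatocyte markers on every array of KI and WT cells of both populations (x axis), with a marker shape for each replicate number. Replicate 3 is the highest WT ST-HSC array in all 3 lists, and the highest WT GMP array for the members and the hepatocyte markers.

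Xist, which is expressed from an inactive X chromosome, separated arrays within the WT groups. It read 3.57 to 3.78 in KI ST-HSC and 2.98 to 3.36 in KI GMP, and it read 11.74, 3.70 and 11.25 in WT ST-HSC and 10.67, 3.46 and 11.01 in WT GMP. The KI arrays were thus near replicate 2 of each WT group and far from the others. Replicate 2 was the lowest WT ST-HSC array for 7 of the 10 members. It lay above all KI ST-HSC arrays for 10 of 10 members, by 0.68 (Ciita) to 5.77 (Cd74). When WT arrays with high Xist were left out, only replicate 2 of each WT group remained, so differences are given without calls. The median difference of the members in ST-HSC was then -3.34, and H2-DMb2 stood at -3.34. H2-DMa in GMP stood at -2.49 in that setting. With the Xist level as a covariate, 6 of 10 members were lower in KI ST-HSC. H2-Aa (adjusted p = 0.0559) and H2-DMb2 (adjusted p = 0.0570) were then not called.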

How the data were processed

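Each of the 12 samples, sorted from fetal or newborn liver, was hybridized to an Affymetrix MG430 v2 array, and groups (3 samples each) came from titles and genotypes. The authors amplified the RNA linearly and deposited log2 values for 45101 probe sets, normalized by RMA, which aligns arrays by quantiles and compresses small differences at low signal. The RMA version is not stated. There is no depth for arrays, whose number limits precision.

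After 64 control probe sets had been left out, 45037 were tested with limma 3.58.1 under R 4.3.3 (moderated statistics after lmFit), using 4 group means over all 12 arrays, 8 residual and 2.52 prior degrees of freedom, and Benjamini-Hochberg adjustment over all of them. Low values were not filtered, so all 10 members and 22 probe sets were tested. Of the probe sets, 34945 had 1 gene symbol in the platform annotation, 932 had several and 9160 had none. Counts of genes used the leading probe sets of 18193 genes. The named genes are all members, up to 4 called members with the smallest adjusted p of each of the 4 further pathway lists, Spi1, Ctss, Irf8, H2-Ea, called neighbours on chromosome 17, the 5 genes most like the members, and the sort markers with Xist. Brd2, H2-Eb2, the cell type markers and the uncalled enhanceosome genes were named after their values had been seen. With 3 arrays against 3, an exact permutation test cannot go below a two-sided p of 0.1. The members and lists were chosen with earlier results of these data known. Promoter windows, gene order and chromosomes are from RefSeq (GRCm38.p6), and the array file names no genome build. The fits were tested on simulated data for ST-HSC. There, 29.9% of changes of 1 log2 unit, 82.1% of 2 units and 97% of 4 units were called in the right direction. A change near 1 unit can thus go without a call.

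Alternatives were a fit of 6 arrays, subtraction of array medians, quantile normalization within a population, a filter (a log2 value of 6 or more on 3 arrays or more), leaving out _s_at and _x_at probe sets, averaging a gene's probe sets, eBayes with trend and robust, significance analysis of microarrays (SAM, the method of the study, written anew with 20 permutations, a median of 0 false calls and the exchangeability constant at percentile 5), Xist as a covariate or a limit (a log2 value of 8), replicate blocks, and leaving out each array.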

Additional observations from a re-analysis of the deposited data

How the results depend on the processing

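Of the 10 members, 8 were lower in KI ST-HSC, and SAM called 5, losing H2-Aa, H2-DMb2 and H2-Ob. Leaving out single arrays gave 7 to 9. In KI GMP, 1 member was lower. The count was 3 with a gene's probe sets averaged, which added H2-Aa (-1.94, adjusted p = 0.0420) and H2-DMb2 (-2.15, adjusted p = 0.00153), 0 with SAM, 2 without replicate 3 of both WT groups, and 1 to 2 when single arrays were left out. No member differed between the populations, but 1 did with the mean of all probe sets (Marchf1, 2.76, adjusted p = 0.0105). There were 2 without replicate 3 of both WT groups (H2-Eb1, 5.31, and Cd74, 5.26), and 0 to 2 when single arrays were left out. Without the WT arrays of high Xist, only replicate 2 of each WT group remained, so no call of a member is given. The difference of H2-Aa in GMP was then -1.76, and that of Cd74 between the populations was 4.66. The difference of Ciita in GMP, -0.01, turned to 0.0183 with probe sets averaged, 0.0032 with Xist as a covariate and 0.10 without replicate 3 of both WT groups, and was -0.15 to 0.10 when single arrays were left out. The cause of these changes was not tested.

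Over all probe sets, 996 were called in ST-HSC, with 161 by SAM and 491 to 1039 when single arrays were left out; the lowest counts were without KI ST-HSC replicate 2 (491) and replicate 3 (573). In GMP 959 were called, with 246 in a fit of 6 arrays, 607 with Xist as a covariate, 449 without the WT arrays of high Xist, 573 without replicate 3 of both WT groups, 43 by SAM and 548 to 1093 when single arrays were left out, where 548 was without KI ST-HSC replicate 2, 555 without KI GMP replicate 3, 553 without WT GMP replicate 1 and 594 without WT GMP replicate 3. SAM and the fit of 6 arrays gave no test of the difference between the populations, and the mean of probe sets gave no count of probe sets. Without _s_at and _x_at sets H2-Aa had no probe set, and under the filter on low values Ciita dropped out. Same-numbered KI and WT samples had deviations that correlated with r from 0.0343 to 0.0742 in ST-HSC and from -0.0381 to -0.0040 in GMP. In ST-HSC each sample correlated best with its own number, and in GMP none did. The labels say that littermates were used, without saying which samples share a litter. All these r were small, and the numbers were not used as pairs in the main fit. Same-numbered GMP and ST-HSC samples had r from -0.1000 to 0.0346 in KI and from 0.0618 to 0.1645 in WT cells, where each sample correlated best with its own number, and a random block of these samples, chosen after the data had been seen (correlation 0.0269), changed no call of a member. With the replicate block of KI and WT samples, 8 members were lower in ST-HSC, 1 in GMP and 0 differed, and 884 and 798 probe sets were called in ST-HSC and GMP. Values near the lower end of the arrays, such as those of Ciita, limit what can be seen of small differences.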
